A study of Rattus norvegicus with 6 samples.

Results

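The genes described here are the Gadd45 family and a set of p53 target genes of the DNA damage response, measured in rat dorsal root ganglia (DRG) after nerve injury. The set was named as 9 genes, Gadd45a, Gadd45b, Gadd45g, Cdkn1a, Mdm2, Ccng1, Bbc3, Bax and Sesn1. Each was looked up by its symbol in the deposited expression table, with preference for a protein-coding row and, among several, for the one with most reads. This found 8 of the 9 among 43350 gene rows, and no row carried the symbol Bbc3, which encodes the pro-apoptotic protein PUMA. The set was drawn up with earlier results of these data known.

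RNA sequencing after ribosomal RNA depletion was carried out on lumbar 4 to 6 DRG of male Sprague-Dawley rats, the ganglia that hold the cell bodies of sensory neurons of the hind limb. In the chronic constriction injury (CCI) group (n = 3) loose suture ties were placed around the left sciatic nerve, a common model of neuropathic pain. In the sham group (n = 3) the nerve was exposed but not tied. The GEO labels give the treatment of these rats as none, and the exposure is described in the study's methods. Ganglia of the operated side were taken 11 days after surgery, from 1 rat per library by the methods, although the labels speak of a pooled sample. If libraries were pools, p-values would describe the spread between pools.

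The 6 libraries held 75423546 to 87615743 counted reads. A gene is termed called here when its log2 fold change reached 0.58 in either direction with an unadjusted p below 0.05 by edgeR's quasi-likelihood test, limits taken from the study. Neuronal marker genes summed to 3174 to 3699 FPKM (read fragments scaled by row length and library total) over the 6 libraries. All 6 of these markers were detected and 0 were called, but 3 had an unadjusted p below 0.05 in that test. Of these 3, Nefh was lower after CCI (log2 fold change -0.54), and Tubb3 (0.31) and Prph (0.25) were higher. Of 5 T cell markers, Cd3d, Cd3e, Cd3g and Cd8a were at or near 0, while Cd4, which macrophages of the rat also carry, was called higher, at 7.09 to 9.74 FPKM after CCI and 5.15 to 5.68 FPKM in sham. Of 2 endothelial markers found, Cldn5 was at 0 and Cdh5 at 3.69 to 7.26 FPKM. The summed level of 6 macrophage markers was 33.3, 29.0 and 23.4 FPKM after CCI and 16.6, 16.2 and 20.4 FPKM in sham, and 3 of the 6 were called higher (Cd68, Csf1r and Cx3cr1). Skeletal muscle markers summed to 134 FPKM in Sham 1 and 19.3 in Sham 3, against 3.88 to 8.36 in the other 4 libraries, and 4 of 5 were called lower.

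Gadd45 proteins are small stress-induced proteins that bind cell cycle kinases, MAP kinase kinase kinases and the DNA repair and demethylation machinery. The transcription factor p53 is stabilised when DNA is damaged and switches on genes for cell cycle arrest (Cdkn1a), for its own inhibition (Mdm2, Ccng1), for apoptosis (Bax, Bbc3) and for metabolic protection (Sesn1). Gadd45a is both a p53 target and a gene that sensory neurons switch on after axotomy, when their growth programme, marked by Atf3, Jun, Sprr1a and Gal, is engaged.

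The start regions of the genes that changed most, and of the family member that was not called, are shown first because factors that switch these genes on often bind there. They are the 250 bases before the annotated start in RefSeq on the GRCr8 build, a different table from the one behind the gene coordinates below, and 7 genes had an entry. That of Gadd45a lies at chr4:97486800-97487049 on the minus strand, that of Gadd45b at chr7:9430719-9430968 on the minus strand, that of Gadd45g at chr17:13530352-13530601 on the minus strand and that of Cdkn1a at chr20:7150682-7150931 on the plus strand. Capitals mark matches to the p53 half-site (10 bases) and to the CCAAT box (5 bases).
Gadd45a: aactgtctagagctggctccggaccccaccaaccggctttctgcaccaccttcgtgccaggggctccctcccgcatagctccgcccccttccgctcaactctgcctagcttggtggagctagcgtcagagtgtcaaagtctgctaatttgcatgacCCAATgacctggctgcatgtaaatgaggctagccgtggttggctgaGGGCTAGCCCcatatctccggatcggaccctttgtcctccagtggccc
Gadd45b: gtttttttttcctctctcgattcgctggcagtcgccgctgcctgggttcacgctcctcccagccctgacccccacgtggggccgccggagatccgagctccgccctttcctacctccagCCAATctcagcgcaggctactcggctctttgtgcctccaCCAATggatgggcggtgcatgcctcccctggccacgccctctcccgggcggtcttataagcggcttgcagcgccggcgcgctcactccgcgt
Gadd45g: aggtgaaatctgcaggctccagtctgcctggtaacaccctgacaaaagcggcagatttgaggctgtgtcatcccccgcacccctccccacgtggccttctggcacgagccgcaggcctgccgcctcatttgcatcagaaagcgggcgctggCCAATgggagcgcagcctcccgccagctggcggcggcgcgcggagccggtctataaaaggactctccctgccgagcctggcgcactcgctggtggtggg
Cdkn1a: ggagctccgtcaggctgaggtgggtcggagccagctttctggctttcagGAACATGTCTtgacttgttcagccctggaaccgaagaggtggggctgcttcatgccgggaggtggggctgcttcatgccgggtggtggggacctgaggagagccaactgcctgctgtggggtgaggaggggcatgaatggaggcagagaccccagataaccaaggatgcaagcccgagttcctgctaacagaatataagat

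The p53 half-site, which p53 binds in pairs, was searched by its general pattern on both strands. A match was found in 4 of the 7 member regions and in 6.56% of all 27457 start regions of the same length. The matches lay 48 to 39 bases before the start of Gadd45a, 201 to 192 before Cdkn1a, 232 to 223 before Ccng1 and 172 to 163 before Sesn1. They are printed with their flanks, the match in capitals, to show how the half-sites differ.
Gadd45a: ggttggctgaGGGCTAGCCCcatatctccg
Cdkn1a: tggctttcagGAACATGTCTtgacttgttc
Ccng1: agacctgcccGGGCAAGCCTtggcattgaa
Sesn1: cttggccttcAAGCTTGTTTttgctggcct
Genes with a match therefore include both called genes (Gadd45a, Cdkn1a) and genes that were not called (Ccng1, Sesn1), while the called gene Gadd45g had none in this window. The AP-1 site (TGANTCA), bound by Jun and Fos proteins, and the cyclic AMP response element (TGACGTCA), bound by CREB and ATF proteins, were searched on both strands, as were the motifs below, and were found in 6.36% and 1.70% of all regions and in 0 of the 7. CCAAT was found in 6 of the 7 and in 34.3% of all regions, the GC box (GGGCGG) in 5 of the 7 and in 32.4%, and TATAAA in Gadd45g and in 13.1%. A match is a description of letters and no evidence of binding, and sites farther away were not searched. Gadd45b and Gadd45g, whose changes are described below, thus shared the CCAAT match and differed in TATAAA and in the GC box.

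Gadd45a rose most among the 8 genes. Its row spans 97782512 to 97784842 on the minus strand of chromosome 4, in the coordinates of the deposited table, whose build is named only as V101. Its level was 21.6, 31.0 and 30.9 FPKM in CCI 1, 2 and 3 and 5.22, 4.64 and 11.2 FPKM in Sham 1, 2 and 3, behind which stood 2562 to 3634 and 543 to 1368 reads. All CCI libraries lay above all sham libraries, CCI 1 was the lowest of its group, and Sham 3 stood well above Sham 1 and Sham 2. The mean rose from 7.02 ± 3.63 FPKM (SD, n = 3) to 27.9 ± 5.40 FPKM (SD, n = 3). The fitted log2 fold change was 1.97 (SE 0.37), or 3.91-fold, with a 95% interval of the log2 value from 1.09 to 2.85. Gadd45a was called, and its Benjamini-Hochberg adjusted p over all rows was 0.142 in edgeR's test. Without Sham 3 the log2 fold change was 2.49 and the adjusted p by the same test was 0.047. In whole ganglia a rise of RNA within cells and a rise in the number of cells that carry it cannot be told apart.

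Gadd45g, the family member best known from neural and immune differentiation, also rose. Its row lies at 13391467 to 13393243 on the minus strand of chromosome 17. Its level was 7.60, 4.53 and 5.01 FPKM in CCI 1, 2 and 3 and 2.85, 2.07 and 3.03 FPKM in Sham 1, 2 and 3. The groups did not overlap, and CCI 1, the lowest CCI library for Gadd45a, was the highest here. The log2 fold change was 1.09 (SE 0.26), or 2.13-fold, and the gene was called, with an adjusted p of 0.222 by edgeR's quasi-likelihood test.

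Gadd45b, an immediate early gene of neurons and of stressed cells, was not called. The Gadd45b row runs from 11646269 to 11648322 on the minus strand of chromosome 7. Its level was 3.11, 3.01 and 3.23 FPKM in CCI 1, 2 and 3 and 3.14, 2.33 and 2.92 FPKM in Sham 1, 2 and 3. The groups overlapped, since Sham 1 was above CCI 1 and CCI 2. The log2 fold change was 0.14 (SE 0.16) with a 95% interval from -0.24 to 0.52, so that a rise as large as the study's limit lay outside the interval.

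**Figure D1:**
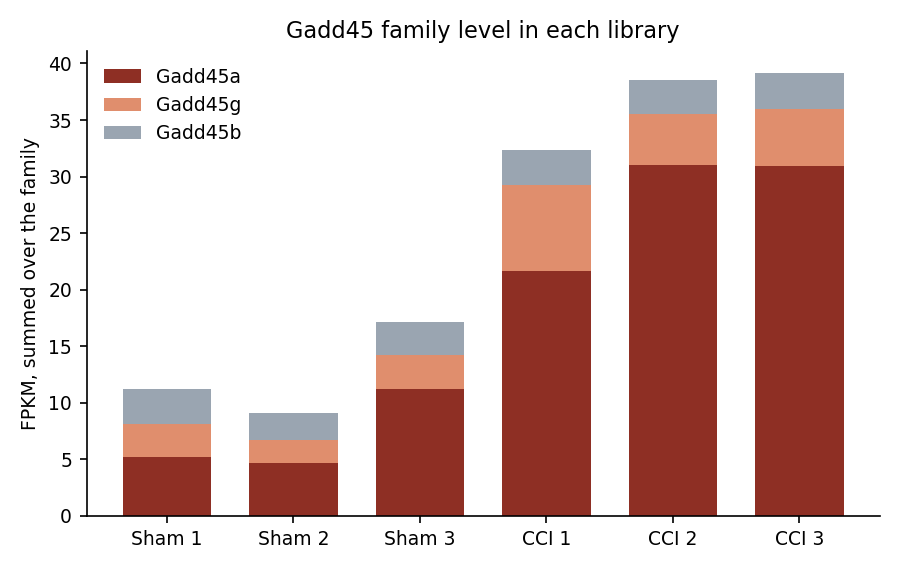
Level of the Gadd45 family in each library, as FPKM stacked by gene, for the 3 sham and the 3 CCI libraries. The summed level is 9.05 to 17.1 FPKM in sham and 32.3 to 39.2 FPKM after CCI, and most of the added height is Gadd45a.

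Summed over the family, the level was 32.3, 38.6 and 39.2 FPKM after CCI and 11.2, 9.05 and 17.1 FPKM in sham. Gadd45a made up 66.9%, 80.5% and 79.0% of that sum after CCI and 46.5%, 51.3% and 65.3% in sham. The share was thus higher in each CCI library than in each sham library, but only narrowly between CCI 1 and Sham 3. CPM are counts scaled by library total and by edgeR's TMM factor, a normalisation factor of each library. In CPM, the log2 ratio of Gadd45a to Gadd45b was 3.17 ± 0.30 (SD, n = 3) after CCI and 1.25 ± 0.63 (SD, n = 3) in sham. The difference of 1.92 had p = 0.1 in an exact two-sided permutation test, the smallest that 3 against 3 libraries allow, and 0.467 after Benjamini-Hochberg adjustment over the 7 ratios computed. The log2 ratio of Gadd45a to Gadd45g was 2.59 ± 0.69 (SD, n = 3) after CCI and 1.59 ± 0.52 (SD, n = 3) in sham, and the groups overlapped (exact permutation p = 0.2, adjusted 0.467).

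Cdkn1a, which encodes p21, the inhibitor of cyclin-dependent kinases through which p53 arrests the cell cycle, rose as well. Its row lies at 6351458 to 6358864 on the plus strand of chromosome 20. Its level was 6.28, 3.56 and 4.34 FPKM in CCI 1, 2 and 3 and 1.43, 2.54 and 1.89 FPKM in Sham 1, 2 and 3. The groups did not overlap, CCI 1 was highest as for Gadd45g, and Sham 2 and CCI 2 were the closest libraries. The log2 fold change was 1.26 (SE 0.29), or 2.39-fold, and the gene was called, with an adjusted p of 0.221 by edgeR's quasi-likelihood test. Its paralogs were not called. Cdkn1b (p27) was at 22.0 ± 1.73 FPKM after CCI and 17.2 ± 5.08 FPKM in sham (SD, n = 3 each), a log2 difference of 0.34 with an interval from -0.20 to 0.88. Cdkn1c (p57) was at 0.827 ± 0.266 FPKM after CCI and 0.837 ± 0.299 FPKM in sham (SD, n = 3 each), a log2 difference of -0.03 with a wide interval from -0.92 to 0.85.

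Ccng1, which encodes cyclin G1, a p53 target that recruits a phosphatase to MDM2, was by far the most abundant member. The Ccng1 row runs from 25903911 to 25910325 on the minus strand of chromosome 10. Its level was 62.8, 51.2 and 49.9 FPKM in CCI 1, 2 and 3 and 45.8, 46.9 and 43.0 FPKM in Sham 1, 2 and 3. The groups did not overlap, but CCI 2 and CCI 3 were close to the sham libraries and CCI 1 stood above them. The log2 fold change was 0.26 (SE 0.10) with an interval from 0.02 to 0.49, and the adjusted p was 0.431 by edgeR's quasi-likelihood test. The unadjusted p lay below 0.05 but the change was under the fold limit, so the gene was not called. Leaving out 1 library took the unadjusted p to 0.05 or above in 4 of 6 cases. Its paralog Ccng2 differed by 0.01 on the log2 scale (interval -0.17 to 0.19), and the log2 ratio of Ccng1 to Ccng2 differed by 0.24 with overlapping groups (exact permutation p = 0.3, adjusted 0.525).

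Mdm2, the ubiquitin ligase that p53 induces and that destroys p53, was not called. Its row lies at 60718954 to 60743328 on the minus strand of chromosome 7. Its level was 6.16, 7.23 and 5.55 FPKM in CCI 1, 2 and 3 and 6.09, 5.50 and 7.17 FPKM in Sham 1, 2 and 3. Each group spanned nearly the same range, and the log2 fold change was -0.00 (SE 0.14) with an interval from -0.34 to 0.33. A second row with this symbol, from 60728797 to 60731652 inside the first, held 232 to 371 reads a library and differed by 0.26 without being called, and the sum of both rows differed by 0.03. Its partner Mdm4, which also restrains p53, was at 8.98 ± 0.237 FPKM after CCI and 8.72 ± 0.207 FPKM in sham (SD, n = 3 each), a log2 difference of 0.03. The log2 ratio of Mdm2 to Mdm4 differed by -0.03 (exact permutation p = 0.8, adjusted 0.8).

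Bax, the effector that opens the outer mitochondrial membrane in apoptosis, was not called. The Bax row runs from 101451802 to 101457207 on the minus strand of chromosome 1. Its level was 6.57, 6.07 and 7.02 FPKM in CCI 1, 2 and 3 and 6.26, 6.98 and 6.95 FPKM in Sham 1, 2 and 3. The groups overlapped throughout, and the log2 difference was -0.06 (SE 0.11) with an interval from -0.32 to 0.21. Bcl2, which holds Bax in check, differed by 0.00 (interval -0.17 to 0.18). The log2 ratio of Bax to Bcl2, often read as a balance of death and survival signals, differed by -0.06 with overlapping groups (exact permutation p = 0.6, adjusted 0.8).

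Sesn1, a sestrin that restrains growth signalling through mTORC1, was not called either. Its row lies at 46667121 to 46758305 on the plus strand of chromosome 20. Its level was 7.26, 7.37 and 7.72 FPKM in CCI 1, 2 and 3 and 8.27, 7.64 and 7.79 FPKM in Sham 1, 2 and 3. CCI 3 lay above Sham 2 in FPKM. In CPM, which include the TMM factors, the CCI libraries were all below the sham libraries, narrowly between CCI 3 (30.2) and Sham 2 (30.5). The log2 difference was -0.10 (SE 0.06) with an interval from -0.25 to 0.05. Its paralogs Sesn2 and Sesn3 differed by 0.05 and -0.14, and the log2 ratios of Sesn1 to each differed by -0.15 (exact permutation p = 0.2, adjusted 0.467) and 0.04 (exact permutation p = 0.8, adjusted 0.8).

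**Figure D2:**
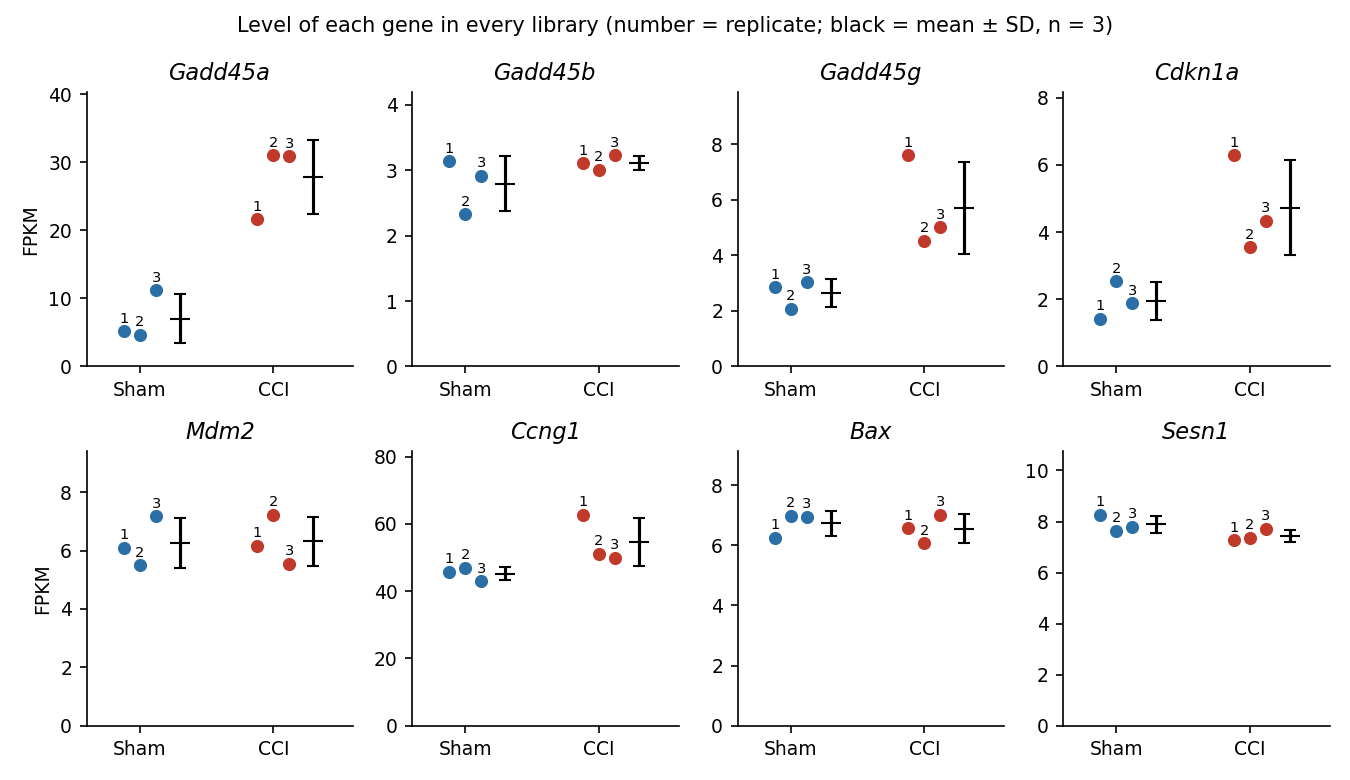
FPKM of the 8 genes in every library, with sham and CCI side by side, replicate numbers above the points and the mean ± SD (n = 3) beside them, on axes from 0 that differ between genes. Gadd45a, Gadd45g, Cdkn1a and Ccng1 have every CCI point above every sham point, and Ccng1 has the smallest change of these on the log2 scale (0.26).

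Of the 8 members, 3 were called higher (37.5%, Gadd45a, Gadd45g and Cdkn1a) and 0 lower. Over all 26663 rows tested, 2.57% were called higher and 1.26% lower at the same limits. By the unadjusted p alone, 4 members were higher, against 5.57% of all rows. After Benjamini-Hochberg adjustment (limit 0.05), 0 members passed edgeR's quasi-likelihood test, which called 0.0638% of all rows higher, and 0 passed limma on log2(FPKM + 0.1), which called 0.0488%. With DESeq2, 3 members passed, the same genes, with adjusted p of 4.21e-08 for Gadd45a, 0.00348 for Gadd45g and 0.00104 for Cdkn1a, against 1.62% of all rows called higher. In CPM, thus with TMM factors, 4 members had all CCI libraries above all sham libraries and 1 (Sesn1, narrowly) had all below, against 8.63% and 8.70% of all rows. The members' median log2 fold change was 0.20 and that of all rows tested was 0.0055. Since the members were named with results known, these counts describe the set and are no test of it.

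**Figure D3:**
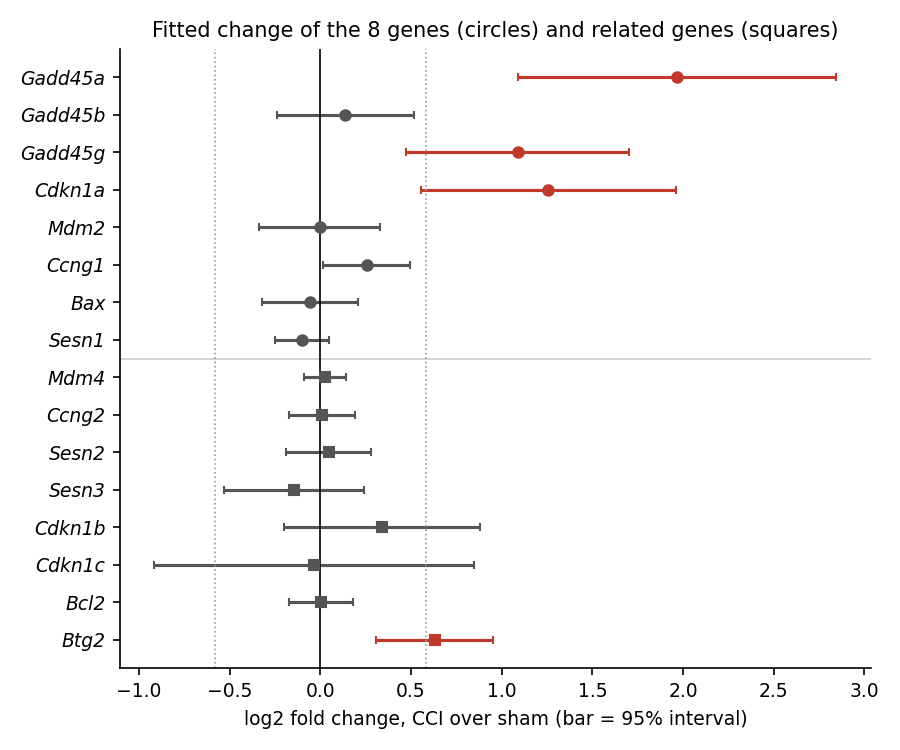
Fitted log2 fold change (CCI over sham) with 95% intervals for the 8 genes (circles) and for related genes (squares), called genes in red and dotted lines at the fold limit of 0.58. Gadd45a (1.97), Cdkn1a (1.26) and Gadd45g (1.09) have intervals above 0. Those of Cdkn1a (0.55 to 1.96) and Gadd45g (0.47 to 1.70) start below 0.58, and that of Gadd45g overlaps the interval of Gadd45b. Mdm2, Bax, Sesn1 and Gadd45b have intervals that include 0 and end below 0.58.

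The order of the levels differed between sham and CCI. In sham, Ccng1 (45.2 FPKM) led, followed by Sesn1 (7.90), Gadd45a (7.02), Bax (6.73) and Mdm2 (6.26), neighbours whose ranges over libraries overlapped. Gadd45b (2.80), Gadd45g (2.65) and Cdkn1a (1.95) formed the low end, and their ranges overlapped as well. After CCI, Gadd45a (27.9 FPKM) was alone in the second place, above Sesn1 (7.45) and below Ccng1 (54.6). Bax (6.55), Mdm2 (6.31), Gadd45g (5.71) and Cdkn1a (4.73) then overlapped from neighbour to neighbour, and Gadd45b (3.12) was last, below the range of Cdkn1a. All of these are FPKM levels, which correct for row length.

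The other genes of the pathway, grouped by role, moved little. The 9 lists, drawn up from background knowledge with earlier results known, named 108 genes, of which 100 had a row and 97 were tested. At the limits above, 2 were higher (2.06%) and 0 lower, near the background of 2.57% and 1.26%. In either direction, 9 had an unadjusted p under 0.05 in edgeR's test. Of these, Map2k4, Map2k6 and Tigar, named after their values were seen, were lower and the others higher. By that p alone, 5.57% of all rows were higher, and the share lower is not given here. After Benjamini-Hochberg adjustment 0 of the 97 passed in edgeR and 0 in limma on log2(FPKM + 0.1). With DESeq2, 3 passed in the higher direction (Btg2, Shisa5 and Tet3) and 1 in the lower (Map2k4), against 1.62% and 1.20% of all rows, and Shisa5, Tet3 and Map2k4, named after their values were seen, did not reach the fold limit. The median log2 fold change was 0.03, and 90 of the 97 lay within 0.5 of 0 on that scale.

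In the list of p53 and its upstream kinases 0 of 8 tested genes were called, and their median change was -0.05 on the log2 scale. Tp63 and Tp73 were under the filter, with 0 to 4 reads in a library. Among the feedback regulators of p53 0 of 7 were called, with a median of 0.01. The p53 protein is controlled mainly by its stability, which RNA levels do not measure.

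In the cell cycle arrest list 1 of 11 was called, Btg2, an antiproliferative p53 target. Its level was 3.97, 5.04 and 4.78 FPKM in CCI 1, 2 and 3 and 3.33, 2.76 and 2.72 FPKM in Sham 1, 2 and 3, without overlap. The log2 fold change was 0.63 (SE 0.13), just above the fold limit, with an adjusted p of 0.188 by edgeR's quasi-likelihood test. The cyclins, cyclin-dependent kinases and proliferation markers of the cell cycle engine had 0 of 14 called and a median of 0.03. In the list of secreted and membrane targets 1 of 5 was called and the median was 0.16.

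The apoptosis list had 0 of 20 called, with a median of 0.14 and values from -0.20 to 0.68. DNA repair and nucleotide supply had 0 of 8 called and a median of -0.01, and stress metabolism and growth control 0 of 10 and a median of -0.08. The partners of Gadd45 proteins, meaning the p38 and JNK kinase cascades and the enzymes of active DNA demethylation, had 0 of 14 called and a median of 0.04. One of them, the DNA demethylase Tet3, was at 5.15, 4.31 and 4.66 FPKM in CCI 1, 2 and 3 and at 3.11, 3.17 and 3.09 FPKM in Sham 1, 2 and 3, a log2 difference of 0.57 (SE 0.08) just under the fold limit, with an adjusted p of 0.0798 by edgeR's quasi-likelihood test.

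**Figure D4:**
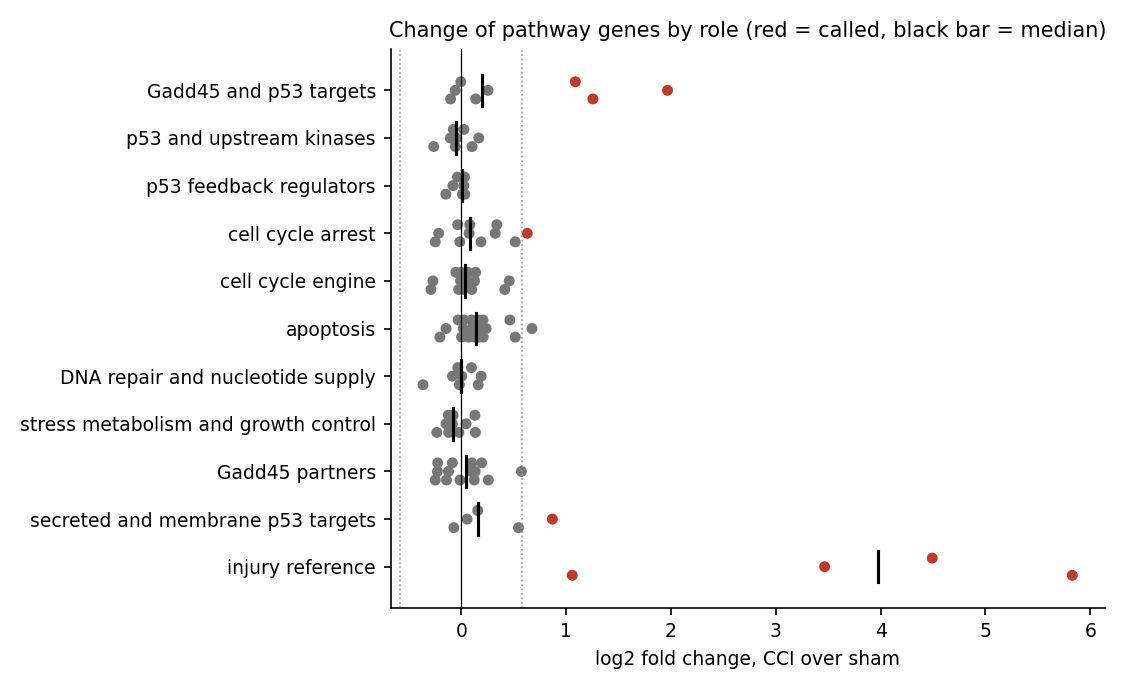
Log2 fold change (CCI over sham) of each tested gene, 1 row of points per list, with called genes in red, the median as a black bar and dotted lines at the fold limit of 0.58. The 9 pathway lists lie around 0 with 2 called genes, while 3 of the 8 members and all 4 injury reference genes lie to the right.

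The injury reference genes were all called higher. Atf3, the transcription factor of injured neurons, was at 34.9, 20.3 and 16.2 FPKM in CCI 1, 2 and 3 and at 1.89, 2.36 and 2.11 FPKM in Sham 1, 2 and 3, a log2 fold change of 3.47 (adjusted p = 0.0296, edgeR's quasi-likelihood test). Gal, the neuropeptide galanin, and Jun had log2 fold changes of 4.49 (adjusted p = 0.0383) and 1.06 (adjusted p = 0.0712) in the same edgeR fit. Sprr1a, a protein of growing axons, was at 1.70 to 5.92 FPKM after CCI and at 0 to 6 reads a library in sham. All 4 were highest in CCI 1, as were Gadd45g, Cdkn1a and Ccng1, whereas Gadd45a was lowest there among the CCI libraries. The summed level of macrophage markers was also highest in CCI 1, though Aif1 was highest in CCI 2 and Cd163 in Sham 3, and the part of these cells in the changes of Gadd45g and Cdkn1a was not tested. The summed level of muscle markers was highest in Sham 1 (134 FPKM) and next highest in Sham 3 (19.3 FPKM). The calls of Gadd45a, Gadd45g and Cdkn1a remained when either library was left out alone. The part of muscle RNA in these changes was not tested.

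The protein-coding genes whose log2 CPM followed each called member most closely over the 6 libraries were found among 13711 genes, by Pearson's r given as a description. For Gadd45a they were Ttll9 (0.997), Axl (0.995) and Ifi47 (0.978). For Gadd45g they were Ccnf (0.999), Myd88 (0.993) and Dram2 (0.992), and for Cdkn1a they were Mafk (0.999), Cdc16 (0.992) and Slc7a7 (0.991). The 6 points share the split into 3 CCI and 3 sham libraries, so that genes that separate the groups in the same direction tend to score high. The measure ignores the size of a change. Ttll9 differed by 0.51 and Axl by 0.39 on the log2 scale, against 1.97 for Gadd45a.

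**Figure D5:**
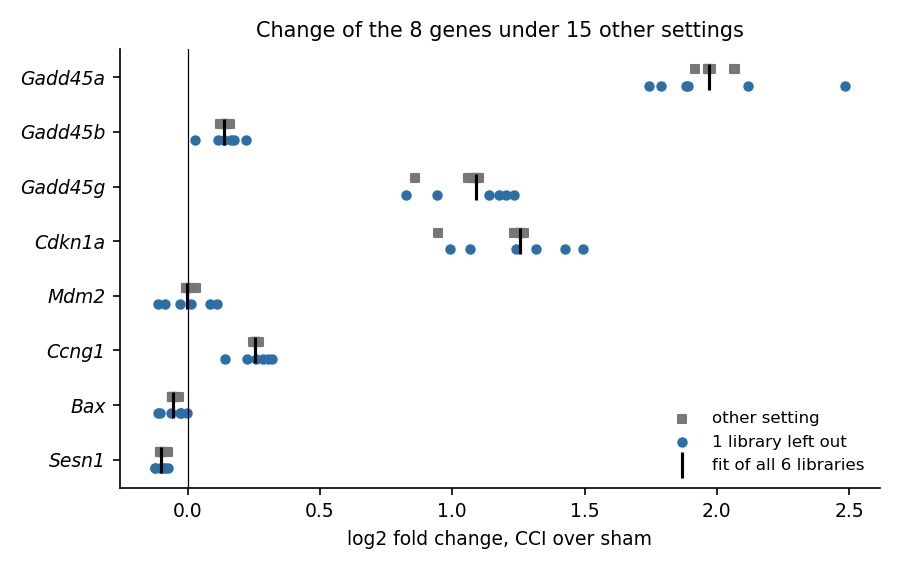
Log2 fold change (CCI over sham) of the 8 genes in the fit of all 6 libraries (black bars), with 1 library left out (blue circles) and under the other settings (grey squares), of which those by limma are on a scale of log2(FPKM + a pseudocount). Gadd45a keeps between 1.75 and 2.49, Gadd45g 0.82 and 1.23 and Cdkn1a 0.95 and 1.49, while Mdm2 falls on both sides of 0.

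Across all 15 alternatives the log2 fold change of Gadd45a lay between 1.75 and 2.49, that of Gadd45g between 0.82 and 1.23 and that of Cdkn1a between 0.95 and 1.49. Each of these genes passed the unadjusted limits in all 15. Gadd45b, Mdm2, Bax and Sesn1 had p of 0.05 or above in all 15.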

How the data were processed

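Libraries were made after ribosomal RNA depletion with dUTP marking of the second strand, and whether strand was used in counting is not given in the sources used here. The authors mapped reads to the rat genome V101, assembled them and estimated expression; the submitters' processing notes name HISAT2 2.0 and StringTie 1.3.0. The authors deposited unnormalised counts per gene row and FPKM values, which divide counts by library total and row length. Rows without a symbol numbered 6849 and held 5.37% to 5.72% of a library's counts.

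Counts were fitted with edgeR 4.0.16 (quasi-likelihood test, TMM factors of 0.988 to 1.01, 2.52 prior degrees of freedom) over 26663 rows that averaged 0.5 FPKM or more, with p adjusted by Benjamini-Hochberg over all of them. Rows were called where unadjusted p lay below 0.05 and the log2 fold change reached 0.58 in either direction. All 8 members found passed the filter. Intervals are 95% intervals of the fit and cover the spread between libraries. Library totals were 75423546 to 87615743 counts.

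Alternatives were DESeq2 1.42.0, DESeq2 size factors, limma 3.58.1 on log2(FPKM + 0.1) and log2(FPKM + 1), filtering at an average of 1 FPKM, testing all rows with any count, protein-coding rows, summed rows, a replicate block and leaving out each library. Ratios of CPM were compared by exact permutation. The edgeR quasi-likelihood test was also run on data simulated from its own fit, and that outcome is not reported here. Software was Python 3.11.15 (numpy 2.4.6, scipy 1.17.1, matplotlib 3.10.9, pandas 2.3.3) and R 4.3.3.

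The members, lists and the naming rule were chosen with earlier results of these data known. The genes named are the members, called genes of the pathway lists, Mdm4, Bcl2, paralogs of members, the injury reference genes, marker lists as sums, and the 3 genes most like each called member. Listed genes without a row were Chek1, Cdkn2d, Ccnb2, Hrk, Mcl1, Tnfrsf10b, Sco2 and Adgrb1, and those under the filter were Tp63, Tp73 and Pidd1. Small RNA and qRT-PCR measurements were not analysed here. Values of some listed genes are not reported here.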

Additional observations from a re-analysis of the deposited data

How the results depend on the processing

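Members called at an adjusted p under 0.05 numbered 0 in edgeR's quasi-likelihood test, 3 in DESeq2 (Gadd45a, Gadd45g and Cdkn1a) and 0 to 1 when 1 library was left out, the 1 being Gadd45a without Sham 3. The cause of the difference between tools was not tested. Pathway genes called higher numbered 2, and 0 under limma on log2(FPKM + 1), whose pseudocount shrinks changes of low genes. With 1 library left out they numbered 1 (without CCI 2) to 4 (without CCI 3, Sham 2 or Sham 3), and pathway genes called lower 0 to 1 (Rrm2b without Sham 2). Btg2 was not called without CCI 2. Restricting the fit to protein-coding rows added Tet3 (3 genes), which then also passed after adjustment. The 3 members called higher, and the 0 called lower, were the same in all 15 alternatives.

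Replicate numbers showed no sign of pairing the samples: deviations of same-numbered libraries correlated at -0.01, -0.02 and -0.08. Those of differently numbered libraries correlated at -0.03 to 0.05. So few libraries cannot show that samples were unpaired. With the replicate number as a block, 3 members and 1 pathway gene (Btg2) were called higher.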

Other observations

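The annotation carried by the deposited table assigns 71 rows to the KEGG p53 signaling pathway, and this set was looked at after the data had been seen. Of them 66 were tested, with 4 called higher and 1 lower, and the 4 include Gadd45a, Gadd45g and Cdkn1a. Over all rows tested, 2.57% were called higher and 1.26% lower. Without the 8 members, all of which carry the annotation, 58 were tested, with 1 higher (1.72%), 1 lower (a row with the symbol Pde11a) and a median log2 fold change of 0.03.

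Some listed genes had an unadjusted p under 0.05 in edgeR's fit across all rows but a change under the fold limit, and are named after their values were seen. Shisa5, a p53 target of the endoplasmic reticulum, differed by 0.55 on the log2 scale. Map2k4, a kinase upstream of JNK and p38, differed by -0.25 and Tigar, a regulator of glycolysis, by -0.23.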
